A study of Mus musculus with 8 samples.

Results

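Ercc4 encodes XPF, the catalytic subunit of the structure-specific nuclease that cuts on the 5′ side of a damaged base in nucleotide excision repair. Its messenger RNA was compared here with that of 9 other genes of the pathway (Ercc1, Ercc2, Ercc3, Ercc5, Ercc6, Ercc8, Xpa, Xpc and Ddb2) in pancreatic lymph nodes, the nodes that drain the pancreas. Members were found by gene name among the rows of the array files that are not controls, which gave 15 probes for the 10 genes, of 41174 probes in all, and 14 of the 15 passed a filter on dim probes. The samples were 8 Deaf1 knockout nodes, 2 from mice aged 4 weeks, 3 aged 12 weeks and 3 aged 30 weeks, all on the BALB/c strain, and each was hybridised in Cy5 against Cy3-labelled RNA of wild-type littermates of its age, pooled from 2 mice at 4 weeks and from 3 mice at 12 and 30 weeks. Deaf1 is a transcription factor; the labels give neither the deleted part of the gene nor the sex of the mice, and no other allele or agent. Ercc4 was picked because its knockout over wild-type ratio was among the lowest in earlier results of these arrays, so its values are a description and have no test. The other 9 genes were chosen by name, on the same arrays.

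In nucleotide excision repair, bulky lesions such as those made by ultraviolet light are found either across the genome, by XPC and by the ubiquitin ligase that DDB2 belongs to, or where RNA polymerase stalls, by CSB (Ercc6) and CSA (Ercc8). Both routes load TFIIH, whose helicases XPB (Ercc3) and XPD (Ercc2) open the helix, and XPA, which holds the opened complex. The nuclease made of ERCC1 and XPF cuts on one side of the lesion and XPG (Ercc5) on the other, and polymerases and a ligase fill the gap. ERCC1 and XPF also act outside this pathway, in the repair of crosslinks between the strands.

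All arrays carried the dyes in the same orientation, and none compared a wild-type mouse with the pool, so neither dye bias of a probe nor the spread among wild-type mice enters any error given here. In the knockout channel 46.8% to 71.4% of probes lay well above background and in the wild-type channel 37.2% to 62.6% (8 arrays in all, a number that limits the precision). Of 14 lymph node genes such as Cd3e, 13 were measured, and 12 or 13 of them lay well above background on every array in both channels. The log2 ratio of Deaf1 itself was −0.22 and −0.12 at 4 weeks, 0.34, 0.35 and 0.32 at 12 weeks, and 0.14, 0.00 and 0.15 at 30 weeks; with the deleted part not given, this neither checks nor contradicts the labels. Replicate 2 of 12 weeks stood apart: its ratios correlated across genes at 0.17 and 0.08 with those of replicates 1 and 3, which correlated at 0.58 with each other, and Xist, the RNA of the inactive X chromosome, had a log2 ratio of 5.32 on this array alone, the others lying between −0.40 and 0.75. Replicate 2 of 30 weeks also stood apart, at 0.37 and 0.36 against 0.89 between replicates 1 and 3, and the median log2 ratio of 11 pancreatic acinar genes was −4.09, 4.03 and −4.50 on replicates 1, 2 and 3 of that age. Slide 1 held the 4-week arrays, read by a scanner and a software version of their own, so that a difference of 4 weeks from the later ages cannot be told apart from one of slide or scanner; slide 2 held the 12-week arrays together with replicate 1 of 30 weeks, and the other 30-week arrays shared slide 3. In RNA of whole nodes, fewer cells of a type and less RNA per cell cannot be told apart.

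Ercc4 was measured by 2 probes on chromosome 16, 25187 bases apart on the plus strand, given here with mm8 coordinates and bases from the 4-week array files because the results for the gene rest on one of them. Where in the transcript they lie was not analysed here, and of the downstream probe the first 30 bases are shown.
A_52_P174973, upstream, chr16:13037047-13037106: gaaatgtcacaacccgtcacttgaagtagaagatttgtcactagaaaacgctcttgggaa
A_51_P210082, downstream, chr16:13062234-13062293: actgtgactcggttgtgtttttcacagaat

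The downstream Ercc4 probe was lower in the knockout on all 8 arrays. Its log2 level in knockout nodes was 8.53 and 8.90 at 4 weeks, 8.18, 7.98 and 7.97 at 12 weeks, and 8.42, 8.54 and 8.35 at 30 weeks. In the wild-type pools it was 10.13 and 10.05 at 4 weeks, 9.46, 9.49 and 9.37 at 12 weeks, and 9.504, 9.57 and 9.47 at 30 weeks. Every knockout level was thus under every wild-type level, at all ages, and the probe was well above background in both channels of each array. The log2 ratios of knockout over wild type were −1.60 and −1.15 at 4 weeks, −1.28, −1.51 and −1.40 at 12 weeks, and −1.08, −1.03 and −1.12 at 30 weeks. Their means were −1.38 ± 0.32 at 4 weeks (SD, n = 2), −1.40 ± 0.12 at 12 weeks and −1.08 ± 0.04 at 30 weeks (SD, n = 3 each), which are 2.60-fold, 2.64-fold and 2.11-fold lower levels in the knockout. Among the 18410 genes tested, Ercc4 had the 28th lowest ratio at 4 weeks, the 6th lowest at 12 weeks, the 105th lowest at 30 weeks and the 3rd lowest in the mean of the 3 ages.

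With loess the ratio at 30 weeks was nearer 0 than at the other ages: all 3 arrays lay between −1.12 and −1.03, and the 5 younger arrays between −1.60 and −1.15. Within slide 2, replicate 1 of 30 weeks had −1.08, against −1.28, −1.51 and −1.40 for the 12-week arrays. Leaving out the arrays that stood apart gave −1.34 at 12 weeks and −1.102 at 30 weeks. At 30 weeks the Ercc4 ratios lay between −1.12 and −1.03, and the acinar median ran from −4.50 to 4.03 over the same arrays. A link between them was not tested. The size of the Ercc4 ratio depends on how the dyes were balanced. The setting without loess only centred each array on the median of its spots that are not controls, dim ones included. The Ercc4 ratios were then −0.90 and −0.28 at 4 weeks, −0.80, −0.97 and −0.93 at 12 weeks, and −0.66, −1.13 and −0.81 at 30 weeks. They were still below 0 on all 8 arrays, with the 4-week mean of −0.59 the nearest to 0. The median of all genes tested, for which dim probes were left out, moved to 0.49, 0.41 and 0.15 at the 3 ages. Relative to that median, Ercc4 stood at −1.08, −1.31 and −1.02.

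The upstream Ercc4 probe carried little signal. Its knockout channel was well above background on 0 of 8 arrays and its wild-type channel on 5 of 8, namely all 3 at 12 weeks and replicates 1 and 3 of 30 weeks. Its log2 ratios were −0.11 and −0.07 at 4 weeks, −0.15, −0.40 and −0.39 at 12 weeks, and −0.18, 0.14 and −0.40 at 30 weeks. These values lie close to background in the knockout. As a second estimate, a knockout channel not well above background was set to the dimmest signal that was, or to its own where that was higher. By that measure the level was 1.24-fold lower in the knockout than in the wild-type pool at 12 weeks, and 1.10-fold lower at 30 weeks. On the log2 scale these are 0.31 and 0.14, beside mean ratios of −0.31 and −0.15, so they set no lower limit. At 30 weeks replicate 2, with a ratio of 0.14, had neither channel well above background. The same holds for both channels at 4 weeks. The probe was below 0 on 7 of 8 arrays and does not measure the size of the difference seen by the other probe.

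**Figure D1:**
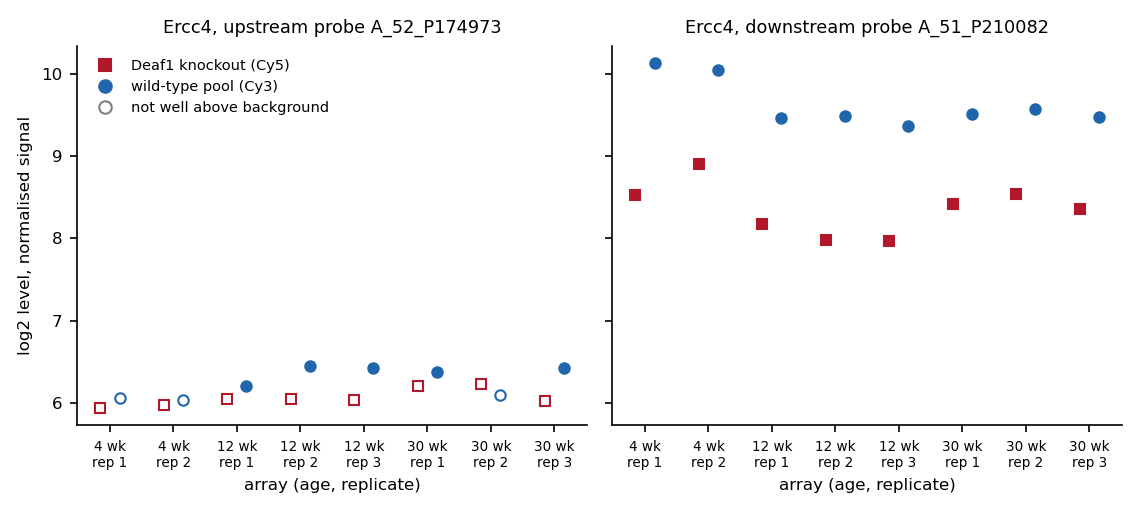
Log2 normalised level of the 2 Ercc4 probes on each of the 8 arrays, squares for Deaf1 knockout (Cy5) and circles for the wild-type pool (Cy3), open where the channel was not well above background. The downstream probe lies between 7.97 and 8.90 in knockout and between 9.37 and 10.13 in wild type, and the upstream probe is open in knockout on all arrays.

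The Ercc4 promoter is shown because Deaf1 is known to bind DNA through TTCG motifs, and matches to those letters are in capitals. The 250 bases before the gene's start are from RefSeq (GRCm38.p6, chr16:13109486-13109735, plus strand).
Ercc4: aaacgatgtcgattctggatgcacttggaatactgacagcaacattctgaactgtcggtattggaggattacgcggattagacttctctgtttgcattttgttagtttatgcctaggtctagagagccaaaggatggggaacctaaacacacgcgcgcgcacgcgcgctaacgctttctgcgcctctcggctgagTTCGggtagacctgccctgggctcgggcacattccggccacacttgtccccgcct
It holds 1 match to TTCG (searched on both strands, so also as CGAA), and 38.7% of the 32851 promoters in the same table held at least 1. The longer TTCGGG, which contains TTCG and was searched with its reverse complement CCCGAA, was found in it as well, and in 5.8% of all. Promoters of 7 of the 10 genes were in the table (not Ercc3, Xpc or Ddb2), and 5 of the 7 held TTCG or CGAA: 3 matches each in Ercc2 and Ercc5, and 1 each in Ercc1, Ercc4 and Ercc8. At least 3 matches were found in 3.6% of all promoters. TTCGGG or CCCGAA was found in 2 of the 7, Ercc4 and Ercc5. A match says only that these letters are present.

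None of the other 9 genes came near the Ercc4 ratio. Ercc4 was picked as one of the lowest genes on these arrays, so that gap was fixed in large part by the choice. The lowest ratio of any of them on any array, by the probe that represents the gene, was −0.64 for Xpa on replicate 1 of 12 weeks, while the highest of Ercc4 was −1.03. A gene is called here if its p in limma, a linear model of all 8 arrays with a mean for each age, stayed under 0.05 after Benjamini-Hochberg adjustment over all 18410 genes. At 4 weeks 0 of 9 were called, where 22.7% of all genes were, and 1 had an unadjusted p under 0.05. At 12 weeks 0 of 9 were called, where 2.61% of all genes were, and 3 had an unadjusted p under 0.05. At 30 weeks 7 of 9 were called, 6 lower and 1 higher in the knockout, where 39.1% of all genes were called, 18.4% lower and 20.7% higher. The median ratio of the 9 genes was −0.07, −0.08 and −0.34 at 4, 12 and 30 weeks, beside 0.02, 0.02 and 0.03 over all genes. In the mean of the 3 ages 6 of 9 were called, Ercc1, Ercc2, Ercc3 and Xpc lower and Ercc6 and Ercc8 higher, where 44.1% of all genes were, 18.7% lower and 25.4% higher; of these signs Ercc1, Ercc3 and Xpc turned without loess and Ercc6 with the GC trend removed. No sign of the 7 called at 30 weeks turned without loess, although only Ercc2 and Ercc8 were then still called. Leaving out any 1 array of 30 weeks left 2 or 3 of the 7: Ercc2 and Ercc8 each time, with Ddb2 without replicate 1 and with Xpc without replicate 2. Of all genes 4127, 5370 and 3939 were called at 30 weeks without its replicates 1, 2 and 3, against 7191 with all arrays.

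**Figure D2:**
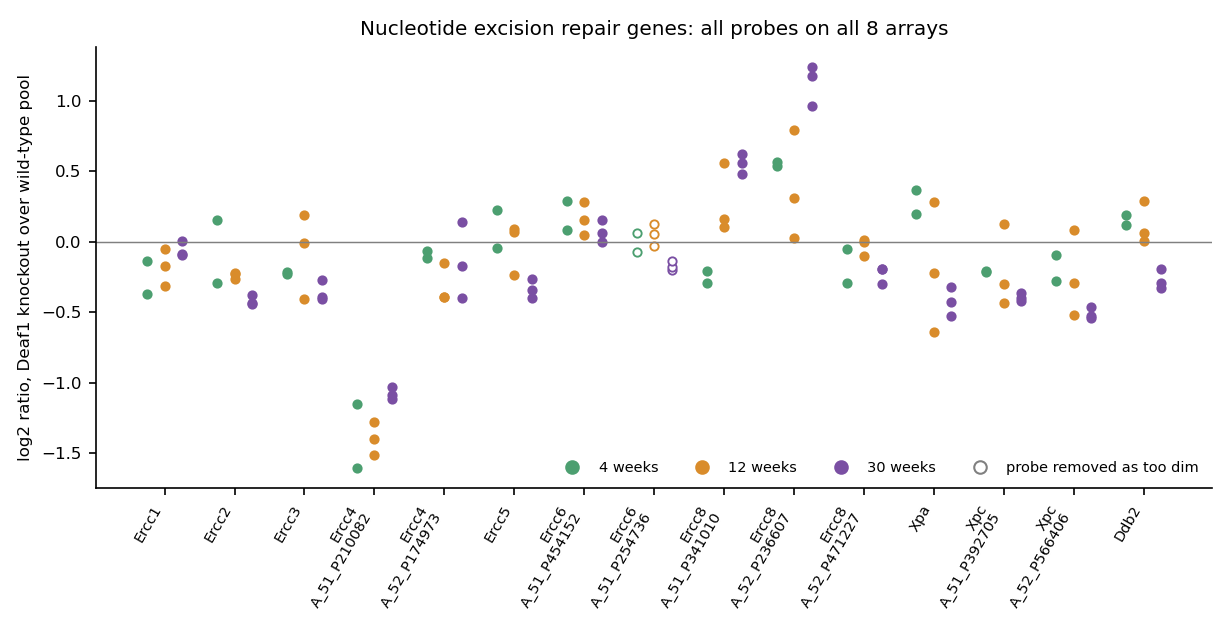
Log2 ratio of Deaf1 knockout over wild-type pool for all 15 probes of the 10 genes, 1 point per array, coloured by age; open points mark the Ercc6 probe removed as too dim. The downstream Ercc4 probe lies between −1.60 and −1.03 on the 8 arrays, below every point of every other probe.

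Ercc1, the partner that XPF needs for its stability and its cutting, was called at none of the 3 ages. Its log2 ratios were −0.37 and −0.14 at 4 weeks, −0.31, −0.06 and −0.17 at 12 weeks, and −0.09, −0.10 and 0.00 at 30 weeks. The fitted ratios were −0.25 ± 0.09 (SE, adjusted p = 0.0749), −0.18 ± 0.07 (adjusted p = 0.171) and −0.06 ± 0.07 (adjusted p = 0.533). Without loess the values turned to 0.48 at 4 weeks (adjusted p = 0.0351) and 0.42 at 12 weeks (adjusted p = 0.0261), both then called higher, and to 0.22 at 30 weeks. The median of all genes moved as well in that setting. Relative to it, Ercc1 stood at −0.01, 0.01 and 0.07 at the 3 ages and at 0.03 in their mean. With loess, the 95% intervals ran from −0.46 to −0.05 at 4 weeks, from −0.35 to −0.01 at 12 weeks and from −0.23 to 0.10 at 30 weeks, so that a ratio of the size of Ercc4's lay outside each of them. The choice of Ercc4 for its low ratio favoured this gap. In the mean of the 3 ages, Ercc1 was called lower at −0.17 ± 0.05 (adjusted p = 0.0185), a direction that turned to 0.37 without loess, and the call was lost without replicate 1 of 4 weeks or replicate 1 of 30 weeks. Its probe measures spliced RNA: the 60 bases lie over 735 bases of the genome in mm8.
A_51_P390397, chr7:18512926-18513660, plus strand: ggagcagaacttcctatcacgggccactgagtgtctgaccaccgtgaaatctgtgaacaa

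The other nuclease, Ercc5, was called lower at 30 weeks. Its log2 ratios were 0.23 and −0.05 at 4 weeks, −0.24, 0.09 and 0.07 at 12 weeks, and −0.27, −0.40 and −0.34 at 30 weeks. The 3 arrays of 30 weeks all lay below the 5 younger ones. The fitted ratio at 30 weeks was −0.34 ± 0.08 (SE, adjusted p = 0.0149), but the difference of 30 minus 12 weeks, −0.31 ± 0.12, was not called (adjusted p = 0.195), nor was that of 30 minus 4 weeks, −0.42 ± 0.13 (adjusted p = 0.0602).

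Of the genes that recognise damage across the genome, both were called lower at 30 weeks, and Ddb2 had the opposite sign at the younger ages. Xpc was measured by 2 probes 244 bases apart, and both were called lower at 30 weeks, at −0.39 ± 0.10 (SE, adjusted p = 0.0123) and −0.51 ± 0.10 (adjusted p = 0.0052) when each probe was tested on its own among 27464 probes, of which 20.6% were called lower at that age. The ratios of the brighter probe were −0.22 and −0.21 at 4 weeks, −0.43, 0.13 and −0.30 at 12 weeks, and −0.40, −0.36 and −0.42 at 30 weeks. Its only value above 0 came from replicate 2 of 12 weeks, the array that stood apart; without it the 12-week mean was −0.37 and was called. Xpc was also called lower in the mean of the 3 ages, at −0.27 ± 0.06 (adjusted p = 0.00813), and turned to 0.30 without loess. Relative to the median of all genes in that setting it stood at −0.04.

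Ddb2, the subunit that binds ultraviolet lesions and a known target of p53, had log2 ratios of 0.19 and 0.11 at 4 weeks, 0.01, 0.29 and 0.06 at 12 weeks, and −0.19, −0.33 and −0.29 at 30 weeks. All 5 younger arrays were above 0 and all 3 of 30 weeks below it, whereas without loess the 30-week values were 0.29, −0.40 and 0.08. The fitted ratios were 0.15 ± 0.09 (SE, adjusted p = 0.249), 0.12 ± 0.07 (adjusted p = 0.321) and −0.27 ± 0.07 (adjusted p = 0.0168). The difference of 30 minus 4 weeks was called, at −0.42 ± 0.11 (adjusted p = 0.0331), where 18.8% of all genes were, and leaving out any 1 array of 4 or of 30 weeks ended the call. That of 30 minus 12 weeks was −0.39 ± 0.10 and not called (adjusted p = 0.0955), where 0.777% of all genes were; within slide 2 it was −0.31, from 1 array of 30 weeks.

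The helicases of TFIIH, Ercc2 and Ercc3, were both called lower at 30 weeks. Ercc2 had −0.29 and 0.15 at 4 weeks, where neither channel was well above background, −0.26, −0.23 and −0.23 at 12 weeks, and −0.44, −0.44 and −0.38 at 30 weeks. Its fitted ratio was −0.24 ± 0.08 at 12 weeks (SE, adjusted p = 0.125) and −0.42 ± 0.08 at 30 weeks (adjusted p = 0.00529), and it was called at 30 weeks with any 1 array left out. Ercc3 had −0.23 and −0.22 at 4 weeks, −0.41, 0.19 and −0.01 at 12 weeks, and −0.27, −0.41 and −0.39 at 30 weeks, with a fitted ratio of −0.36 ± 0.10 at 30 weeks (adjusted p = 0.0243). Leaving out any 1 array of 30 weeks ended the Ercc3 call.

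Xpa had the widest spread at 12 weeks. Its log2 ratios were 0.36 and 0.20 at 4 weeks, −0.64, 0.28 and −0.22 at 12 weeks, and −0.32, −0.43 and −0.53 at 30 weeks. The value of 0.28 came from replicate 2 of 12 weeks, and without that array the 12-week mean was −0.43 and was called. Xpa was called lower at 30 weeks, at −0.42 ± 0.15 (SE, adjusted p = 0.0472), a call that ended without any 1 of 6 arrays. The difference of 30 minus 4 weeks, −0.71 ± 0.23, was not called (adjusted p = 0.0652), although both 4-week arrays were above 0 and all 3 of 30 weeks below it; without loess replicate 1 of 30 weeks had 0.05.

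**Figure D3:**
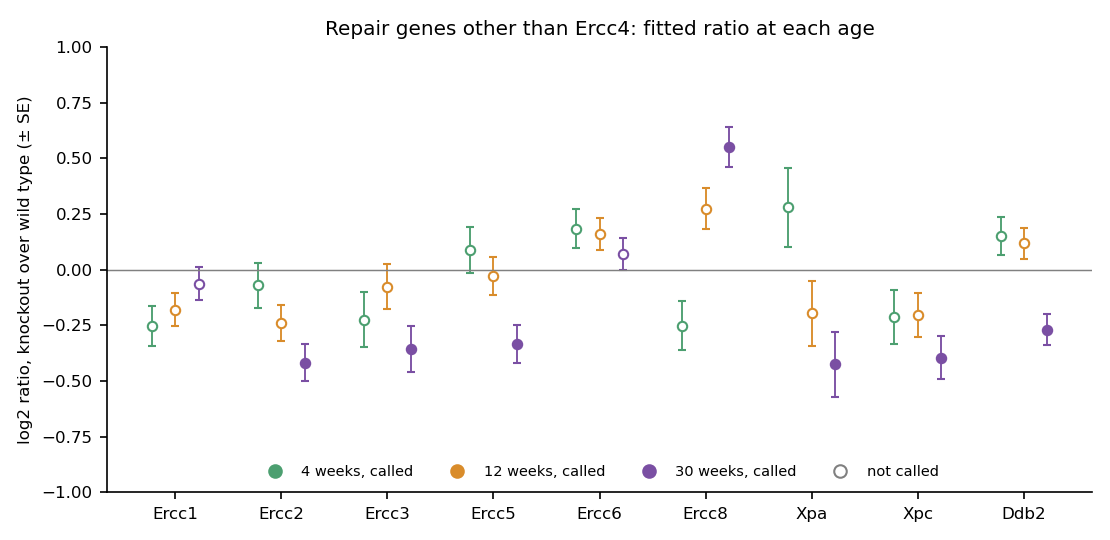
Fitted log2 ratio of Deaf1 knockout over wild type (± SE) for the 9 genes other than Ercc4 at 4, 12 and 30 weeks, filled where the adjusted p was under 0.05. The filled points are at 30 weeks only, 6 below 0 between −0.42 and −0.27 and Ercc8 at 0.55.

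Of the genes of transcription-coupled repair, Ercc8 was called higher at 30 weeks by the probe that represents it, and Ercc6 was called at no age. Ercc6 had log2 ratios of 0.28 and 0.08 at 4 weeks, 0.05, 0.28 and 0.16 at 12 weeks, and 0.00, 0.15 and 0.06 at 30 weeks. At 4 weeks its wild-type channel was not well above background, and the fitted ratio of 0.18 ± 0.09 (SE, adjusted p = 0.17) was not called. In the mean of the 3 ages it was called at 0.14 ± 0.04 (adjusted p = 0.0346), which became −0.01 once the trend of the ratios with the GC content of the probes was removed, and which was lost without any 1 of 6 arrays. The second Ercc6 probe was not well above background in either channel of any array.

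Ercc8, which targets CSB for degradation as part of a ubiquitin ligase, was measured by 3 probes on chromosome 13 that disagreed, and they are given in order along the plus strand in mm8. The middle probe spans 914 bases of the genome and so measures spliced RNA; of the others the first 30 bases are shown.
A_52_P236607, chr13:109284352-109284411: acagtgacatcatgccagtcaggtcatctg
A_52_P471227, chr13:109298426-109299339: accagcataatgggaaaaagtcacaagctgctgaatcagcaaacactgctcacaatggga
A_51_P341010, chr13:109315175-109315234: ctgagtttgggatatttccctgtgtgcttt

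The most downstream Ercc8 probe, the brightest of the 3, represents the gene. Its log2 ratios were −0.29 and −0.21 at 4 weeks, 0.56, 0.11 and 0.16 at 12 weeks, and 0.55, 0.48 and 0.62 at 30 weeks. Both 4-week arrays were below 0 and all later ones above it. The fitted ratios were −0.25 ± 0.11 (SE, adjusted p = 0.142), 0.27 ± 0.09 (adjusted p = 0.115) and 0.55 ± 0.09 (adjusted p = 0.00262), and without loess the 4-week value turned to 0.60. Relative to the median of all genes in that setting, the 4-week value was 0.11. The difference of 30 minus 4 weeks was called, at 0.80 ± 0.14 (adjusted p = 0.00832), and was no longer called without replicate 1 of 4 weeks. That of 12 minus 4 weeks was not called, at 0.53 ± 0.14 (adjusted p = 0.0653), where 6.98% of all genes were called.

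The most upstream Ercc8 probe was above 0 on all 8 arrays. Its log2 ratios were 0.54 and 0.56 at 4 weeks, 0.79, 0.03 and 0.31 at 12 weeks, and 1.24, 0.96 and 1.18 at 30 weeks. When each probe was tested on its own it was called higher at 4 weeks (adjusted p = 0.0385) and at 30 weeks (1.12 ± 0.13 (SE), adjusted p = 0.000728), ages at which 13.3% and 19.5% of all probes were called higher. The middle probe had −0.30 and −0.05 at 4 weeks, −0.01, 0.01 and −0.10 at 12 weeks, and −0.30, −0.19 and −0.19 at 30 weeks, and was called lower at 30 weeks, at −0.23 ± 0.07 (adjusted p = 0.0263). At 30 weeks, therefore, 2 probes of Ercc8 were called higher and the one lying between them lower. The probe that is higher by the most carries another transcript accession in the files than the other 2.

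**Figure D4:**
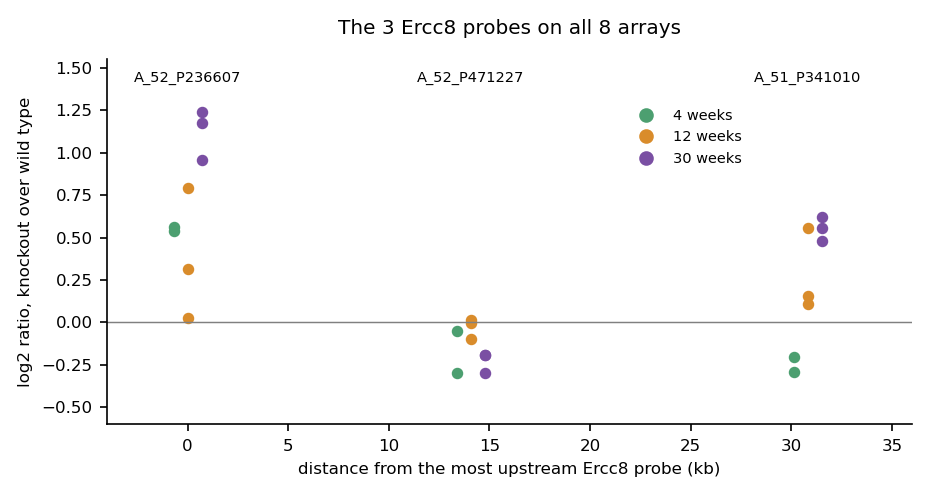
Log2 ratio of Deaf1 knockout over wild type for the 3 Ercc8 probes, 1 point per array, against the distance of each probe from the most upstream one in kb; points of 4 and 30 weeks are set slightly left and right of the probe's place. The 30-week points lie between 0.96 and 1.24 at the upstream probe, between −0.30 and −0.19 at the middle one and between 0.48 and 0.62 at the downstream one.

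Beyond these 10 genes, 53 of 54 further genes of the pathway and of the proteins that XPF works with were measured. At 4 weeks 11 were called higher and 1 lower, where 15.3% and 7.38% of all genes were, at 12 weeks 0 were called (11 had an unadjusted p under 0.05), and at 30 weeks 11 were called higher and 17 lower, where 20.7% and 18.4% of all genes were. In the mean of the 3 ages 17 were called higher and 10 lower, where 25.4% and 18.7% of all genes were. Without loess the calls were 40 higher and 1 lower at 4 weeks, 43 and 0 at 12 weeks, 15 and 1 at 30 weeks, and 45 and 1 in the mean. Over all 18410 genes that setting called 9361 higher and 388 lower at 4 weeks, and 9700 and 607 at 12 weeks. At 30 weeks it called 4535 and 614 of all genes, and in the mean 11085 and 1085. Leaving out 1 array of 12 or 30 weeks moved the number called to 20 at 4 weeks (without replicate 1 of 12 weeks), where 5178 of all genes were called, against 4179. At 12 weeks it moved to 4 (without replicate 2), where 1852 of all genes were called, against 480. At 30 weeks it moved to 18 or 16 (without replicate 1 or 3), where 4127 or 3939 of all genes were called, against 7191. Without an array of 4 weeks that age rests on 1 array, and calls are not counted for that setting. The median ratio of the 53 was 0.11, 0.06 and 0.00 at 4, 12 and 30 weeks. With the smallest p in the mean of the 3 ages, Ccnh, the cyclin of the TFIIH kinase (0.55 ± 0.06, SE), Cul4b, a scaffold of ubiquitin ligases with DDB1 (0.63 ± 0.08), Rpa3, the smallest subunit of the single-strand binding protein RPA (0.43 ± 0.05), and Tcea1, an elongation factor that restarts stalled polymerase (0.42 ± 0.06), were higher in the knockout. Rpa2, another RPA subunit (−0.50 ± 0.06), Gtf2h3, a core TFIIH subunit (−0.37 ± 0.06), Rfc2, part of the clamp loader (−0.24 ± 0.05), and Xab2, which binds XPA (−0.23 ± 0.05), were lower, and all 4 of these turned above 0 without loess, to between 0.05 and 0.48.

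Subunits of one complex were called in both directions at 30 weeks, an age at which 20.7% of all genes were called higher and 18.4% lower; these genes were named after their values were seen. Without loess the direction of none of those named here as called turned, but the lower calls of Gtf2h3, Gtf2h4, Cdk7, Mnat1 and Fancd2 were lost. Of the 8 TFIIH subunits other than the helicases, Gtf2h1 (0.39) and Ccnh (0.80) were called higher, and Gtf2h3 (−0.56), Gtf2h4 (−0.43), Cdk7 (−0.57) and Mnat1 (−0.56) lower. Ccnh, Cdk7 and Mnat1 together make up the kinase module of TFIIH. Of the RPA subunits, Rpa3 had log2 ratios of 0.85, 0.62 and 0.80 and was called higher at 0.76 ± 0.08 (SE, adjusted p = 0.000989). Rpa2 had −0.77, −0.84 and −0.84 and was called lower at −0.81 ± 0.10 (adjusted p = 0.00108), while Rpa1 had 0.16, −0.08 and 0.04 and was not called. Among the 11 measured genes that work with XPF or resemble it, Slx4, the scaffold that binds XPF in crosslink repair, was called higher at 0.67 ± 0.12 (adjusted p = 0.00327), as were Fanca and Terf2, and Fancd2 was called lower.

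**Figure D5:**
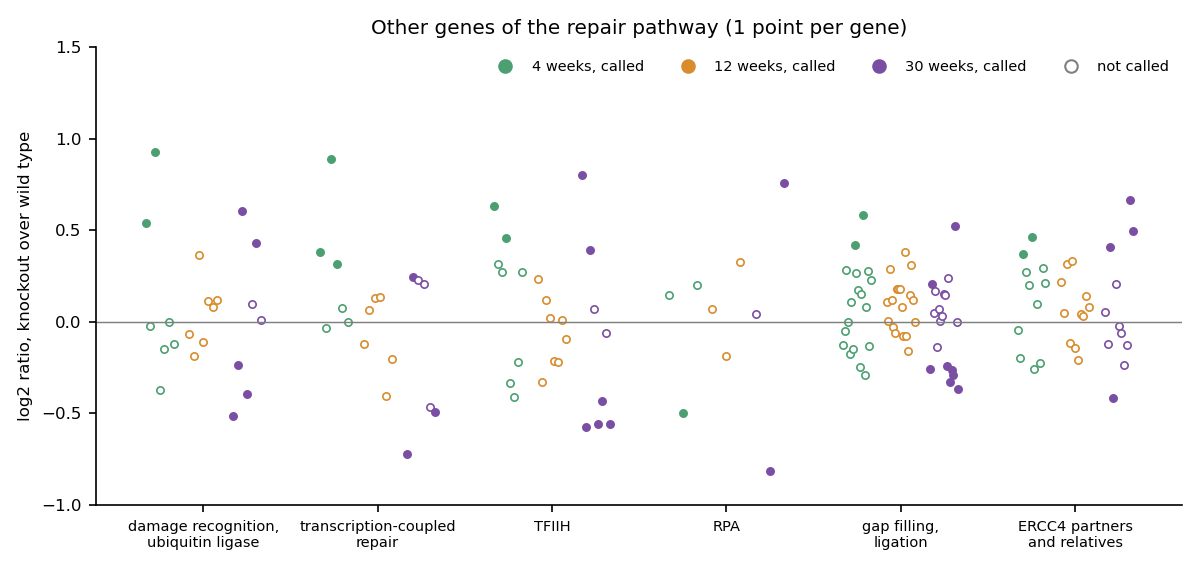
Log2 ratio of Deaf1 knockout over wild type for 53 other genes of the repair pathway, in 6 groups, 1 point per gene at 4, 12 and 30 weeks, filled where the adjusted p was under 0.05. Filled points at 30 weeks lie on both sides of 0 in each of the 6 groups, and 5 of these 28, all below 0, turned without loess.

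On chromosome 16, 12 genes had a kept probe within 1000000 bases of the Ercc4 probes in the mm8 coordinates, and all of them lay downstream. The nearest was Mrtfb, a coactivator of serum response factor, 184161 bases away, with ratios of −0.03, 0.14 and 0.09 at 4, 12 and 30 weeks and no call. Of the 12, 4 were called higher and 2 lower in the mean of the 3 ages, where 25.4% and 18.7% of all genes were. The lowest of them was Ifitm7, with −0.33 ± 0.06 (SE, adjusted p = 0.00221) in the mean, which turned to 0.32 without loess, and −0.74 at 30 weeks. The highest fitted ratio at any age was 0.72, for Marf1 at 4 weeks, and Pdxdc1 reached 0.93 on replicate 2 of 12 weeks. The median of the 12 was 0.10 at 4 weeks, −0.01 at 12 weeks and −0.08 at 30 weeks, and no neighbour's ratio on any array was as low as that of Ercc4. Here too the choice of Ercc4 for its low ratio favoured the gap.

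The genes with ratios most like those of Ercc4 over the 8 arrays were found by the root mean square difference of the log2 ratio, among 18383 genes with a value on every array. Eif4g3, a scaffold of translation initiation, was nearest at 0.36, with −0.95 and −0.99 at 4 weeks, −1.39, −1.39 and −1.27 at 12 weeks, and −1.37, −1.43 and −1.68 at 30 weeks. Its mean ratio was −0.97, −1.35 and −1.49 at the 3 ages. Over the 8 arrays its ratios correlated with those of Ercc4 at −0.46, so the likeness is in level and not in pattern. The next were an unnamed probe on chromosome 2, A_51_P250217, at 0.58, Kazald1 at 0.59, Ttc5 at 0.60 and an unnamed probe on chromosome 7, A_52_P932831, at 0.62. Their correlations with Ercc4 were 0.70, 0.93, 0.41 and 0.14, in this order. Of the 9 other repair genes Ercc2 was nearest to Ercc4, at 1.05 and the 1451st place, and Ercc8 the farthest, at 1.54 and the 15279th.

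Markers of cell types and of proliferation were read on the same arrays. Of 11 acinar genes 0 were called at any age or in the mean of the 3 ages (44.1% of all genes in the mean). Their median on single arrays of 30 weeks ran from −4.50 to 4.03. Of 15 proliferation genes 8 were called higher and 0 lower in the mean of the 3 ages (25.4% and 18.7% of all genes), with a median ratio of 0.05, 0.36 and 0.20 at 4, 12 and 30 weeks, and their summed level was 26382 to 51296 in knockout and 24368 to 36770 in wild type. Of the 13 lymph node genes 1 was called lower and 4 higher at 4 weeks (7.38% and 15.3% of all genes), and 0 were called at 12 weeks. At 30 weeks 5 were called lower and 2 higher (18.4% and 20.7% of all genes). In the mean of the 3 ages 6 were called lower and 3 higher (18.7% and 25.4% of all genes). Of 8 adipocyte genes, 3 were called lower and 1 higher in the mean of the 3 ages (18.7% and 25.4% of all genes), and the median ratio was −0.84, −0.77 and −0.0046 at 4, 12 and 30 weeks. The part of these cells in the repair genes' ratios was not tested.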

How the data were processed

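RNA of Deaf1 knockout nodes (Cy5) and wild-type pools (Cy3) was read on 8 Agilent arrays of 2 colours. Per the file headers, the deposited scanner files hold mean spot and background intensity, processed signal intensity, a log10 ratio of red over green and quality flags with a value of 0 or 1, from Agilent Feature Extraction 9.5.3.1 (4 weeks) and 10.2.1.3 (other ages). The deposited series matrix holds, by comparison with the scanner values, a log2 ratio of the processed signals, red over green; the software that made it is not given in the sources used here. Its medians per array ran from −0.21 to 0.15, so it was not centred.

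With limma 3.58.1 in R 4.3.3, intensities were corrected with normexp (offset 50) and loess-normalised within arrays, control spots at weight 0 and outlier spots left out. Probes stayed in where 1 channel was well above background on every array of an age (27464 probes), and the brightest represented its gene (18410 genes). All 8 arrays entered 1 model, with a mean for each age. Tests were two-sided moderated limma tests with Benjamini-Hochberg adjustment over all genes. The scripts were tested on simulated data. The labels call the samples biological replicates; 1 pool per age is assumed, and p-values then measure the spread between knockout samples only. Names came from the accessions in the files through a RefSeq table (24375 probes), from symbols (6301) or synonyms (2426), or stayed as in the files (8072). Coordinates are the files' own.

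The members, gene lists and tests were chosen with earlier results of these data known. The rule for naming took all member probes; of the 53 further repair genes, up to 4 in each direction with the smallest p in the mean of the 3 ages; genes within 1000000 bases of the Ercc4 probes, of which the nearest and the extremes are named; the 5 genes most like Ercc4; and Deaf1 and Eif4g3. Further subunits of TFIIH and RPA, Slx4, Fanca, Terf2 and Fancd2 fall outside it and were chosen after their values were seen. The difference of 30 minus 4 weeks and the tests of single probes were added after seeing the data. Alternatives covered background correction, scaling, dim probes, the choice of probe, probe GC content, slide, replicate number, array weights, the threshold and each array left out.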

Additional observations from a re-analysis of the deposited data

Results flagged for a closer look

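Between ages, 5 differences among 3 genes stood out because every array of one age was above 0 and every array of the other below it, and 2 of the 5 were also called. Without loess the opposite signs held for none of the 5: Ercc8 was then at 0.41 and 0.78 at 4 weeks, Ddb2 at 0.29, −0.40 and 0.08 and Xpa at 0.05, −0.53 and −0.26 at 30 weeks. For Ercc8 the ratio was higher at 30 than at 4 weeks by 0.80 ± 0.14 on the log2 scale (SE, adjusted p = 0.00832) and higher at 12 than at 4 weeks by 0.53 ± 0.14 (adjusted p = 0.0653, not called). This holds for the probe that represents the gene: the upstream Ercc8 probe was above 0 on all 8 arrays, with −0.17 for 12 minus 4 and 0.58 for 30 minus 4 weeks, and the middle probe had 0.14 and −0.05, none of them called. For Ddb2 the difference was −0.42 ± 0.11 for 30 minus 4 weeks (adjusted p = 0.0331) and −0.39 ± 0.10 for 30 minus 12 weeks (adjusted p = 0.0955, not called). For Xpa it was −0.71 ± 0.23 for 30 minus 4 weeks (adjusted p = 0.0652, not called). Slide, scanner and software differed between the 4-week arrays and the rest, so these cannot be told apart from age in 4 of the 5.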

How the results depend on the processing

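With no loess, each array was only centred on the median of its spots that are not controls, dim ones included. The median of all genes tested then moved to 0.49, 0.41, 0.15 and 0.34 (4, 12, 30 weeks and their mean). Of the calls over all genes 96.0%, 94.1%, 88.1% and 91.1% were higher in the knockout, against 67.5%, 47.3%, 53.0% and 57.7%. The Ercc4 ratio was then −0.59, −0.90 and −0.86 at 4, 12 and 30 weeks, and 5, 6 and 2 of the 9 other genes were called. Of all 18410 genes 9749, 10307 and 5149 were called at these ages in that setting. Directions of values called in at least 1 of the 2 settings turned to 0.48 (Ercc1), 0.60 (Ercc8) and 0.62 (Xpc) at 4 weeks, to 0.42 (Ercc1), 0.53 (Ercc3) and 0.40 (Xpc) at 12 weeks, and in the mean to 0.37 (Ercc1), 0.30 (Ercc3), 0.32 (Xpa), 0.30 (Xpc) and 0.56 (Ddb2). Of values called in neither setting, Ercc3 turned to 0.45 at 4 weeks, Ercc5 to 0.35 and Xpa to 0.26 at 12 weeks, Ercc1 to 0.22 at 30 weeks and Ercc5 to 0.19 in the mean. The scanner's log ratio and the series matrix both gave −1.81, −1.57 and −1.20 for Ercc4 at the 3 ages, 3 and 4 called genes at 4 weeks, and 2 each for 12 minus 4 weeks. They called 6408 and 6493 of all genes at 4 weeks, and 2150 and 2195 for 12 minus 4 weeks. Averaging the kept probes gave −0.73, −0.86 and −0.61 for Ercc4. Removing the GC trend gave −1.13 for Ercc4 at 30 weeks, −0.0131 for Ercc6 in the mean (−0.11 at 30 weeks, where Ercc1 became 0.06, and Ercc2 0.04 at 4 weeks, none of these 3 called), 3 called genes in the mean and 1 for 12 minus 4 weeks. With the GC trend removed 7510 of all genes were called in the mean and 1275 for 12 minus 4 weeks. No background correction gave 1 at 4 weeks, where it called 4136 of all genes. With slide as a random block (consensus correlation −0.26) 2 genes were called at 4 weeks, 6 at 12 weeks, 1 for 12 minus 4, 1 for 30 minus 12 and 5 for 30 minus 4 weeks. Of all genes the slide block called 6617 at 4 weeks and 8981 at 12 weeks, against 4179 and 480 without it. It called 4480 for 12 minus 4 weeks, against 1285. For 30 minus 12 weeks it called 1115 higher and 1227 lower, and for 30 minus 4 weeks 2481 and 3537. Array weights gave 1, 3 and 4 in those 3 differences, and a threshold of 0.1 gave 1, 1 and 5, and 1 at 4 weeks. Over all genes, array weights called 414 higher and 1409 lower, 1875 and 1796, and 2074 and 3059 in the 3 differences. The threshold of 0.1 called 592 and 1674, 433 and 470, and 2077 and 3062 there, and 3669 and 2116 at 4 weeks. Same-numbered replicates correlated at −0.08 to 0.24 in their deviations. No differently numbered pairs stand beside these values, so they do not decide whether the numbers pair the samples. With the replicate block 3 genes were called in the mean and 1 for 30 minus 4 weeks, against 6 and 2. Of all genes 7008 were then called in the mean, against 8124. For 30 minus 4 weeks 716 of all genes were called higher and 1422 lower, against 1306 and 2160. The cause of these changes was not tested.

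Leaving out 1 array at a time gave 0 to 2 called genes at 4 weeks (2 without replicate 1 of 12 weeks), 0 to 2 at 12 weeks (2 without replicate 2 of 12 weeks), 2 to 7 at 30 weeks, 2 to 6 in the mean (2 without replicate 1 of 4 weeks, 3 without replicate 1 or 3 of 30 weeks), 0 to 2 for 12 minus 4, 0 to 4 for 30 minus 12 and 1 to 4 for 30 minus 4 weeks (the highest of these without replicate 2 of 12 weeks for the first and replicate 1 of 12 weeks for the others). The Ercc4 ratio ran from −1.60 to −1.15 at 4 weeks, −1.46 to −1.34 at 12 weeks and −1.102 to −1.06 at 30 weeks; a 4-week value then rests on 1 array. Over all settings together, the other processing and the arrays left out, 28 of 179 values of single genes at 30 weeks lost the call. No called value turned there, whereas 3 values at 4 weeks, 3 at 12 weeks and 6 in the mean turned with a call in at least 1 setting. These turned without loess or with the GC trend removed.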
